A study of Mus musculus with 50 samples.

Results

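*Alppl2* and *Vnn1* are 2 genes of the 18055 in the deposited RNA-seq table of mouse embryonic stem cells (ESCs) with different mutations of the Polycomb repressive complex 2 (PRC2). They were chosen by their normalised read counts, which were far higher in *Ezh1/2* dKO ESCs than in the other lines, so their RNA levels are given as a description and without a test. RNA-seq covered 4 lines of the mouse ESC line E14TG2a, grown on gelatin, with 2 libraries each: wild type (WT), *Ezh2* KO, *Ezh1/2* dKO (both genes excised) and *Ezh2* Y726D, which has a point mutation that removes the catalytic activity of EZH2 and was made in *Ezh1* KO cells. A further line, *Ezh2* R685C, also made in *Ezh1* KO cells, was profiled by ChIP-seq only, and *Ezh1/2* dKO cells with HA-tagged human EZH1 only by ChIP-seq for HA. All lines were grown in medium with 2i, LIF and serum, and the mutants are CRISPR/Cas9 clones, so a clone and its mutation cannot be told apart. Nothing in the labels says that the 2 libraries of a line came from separate cultures, so the spread between them may be technical.

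*Alppl2* encodes the embryonic, placental-like alkaline phosphatase, an enzyme held on the outer cell surface by a glycosylphosphatidylinositol (GPI) anchor, where it removes phosphate groups from its substrates. *Vnn1* encodes vanin 1, a pantetheinase that is also GPI-anchored and splits pantetheine, a breakdown product of coenzyme A, into pantothenate (vitamin B5) and cysteamine. PRC2 methylates lysine 27 of histone H3 through EZH1 or EZH2 and, in ESCs, is found mainly at CpG-rich promoters of silent developmental genes. SUZ12 is a core subunit of PRC2, H3K27me3 its best known product, and H3K27ac the acetylated form of the same lysine, found at active promoters and enhancers.

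The genes lie on different chromosomes. In mm9, *Alppl2* is at chr1:88983265-88986503 on the minus strand with 11 exons, and *Vnn1* is at chr10:23614494-23625149 on the plus strand with 7 exons. The 250 bases before each start site are printed 5′ to 3′ on the strand of the gene with each CpG in capitals. The first is chr1:88986504-88986753 and the second chr10:23614244-23614493, both read from the mm9 genome.
*Alppl2* promoter: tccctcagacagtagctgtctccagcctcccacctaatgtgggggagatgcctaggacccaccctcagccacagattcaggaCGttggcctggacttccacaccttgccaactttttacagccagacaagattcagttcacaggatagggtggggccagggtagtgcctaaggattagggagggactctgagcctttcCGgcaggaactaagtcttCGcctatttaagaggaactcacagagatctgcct
*Vnn1* promoter: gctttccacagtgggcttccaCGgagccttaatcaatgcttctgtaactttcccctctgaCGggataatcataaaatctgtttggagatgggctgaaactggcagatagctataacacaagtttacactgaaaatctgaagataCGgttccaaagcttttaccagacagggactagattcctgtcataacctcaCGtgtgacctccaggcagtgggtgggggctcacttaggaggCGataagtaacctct
The *Alppl2* window is identical over its 250 bases to the RefSeq promoter entry of GRCm38.p6. *Alppl2* held 3 CpGs in this window and *Vnn1* 5, where the median over 22368 protein-coding genes was 8 and over 502 genes called higher in *Ezh1/2* dKO than in WT it was 11. At most as many CpGs as in *Alppl2* were found in 31.0% of promoters, and at most as many as in *Vnn1* in 40.5%. In the 1000 bases centred on the start site, the observed over expected CpG ratio was 0.247 for *Alppl2* and 0.411 for *Vnn1*, against a median of 0.549 over all genes and 0.594 over the genes called higher in dKO. The motif TATTTAA (either strand) was found at position -30 from the *Alppl2* start site and in 4.07% of all promoters, but not in the *Vnn1* window. TATAAA (either strand) was in neither window and in 12.3% of all promoters.

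The libraries held 3604123 to 5181553 reads on genes, and all values of the table were whole multiples of the value of 1 read. The targeted genes followed the labels. *Ezh2* was at 546 to 598 normalised counts in WT, 0.968 and 1.05 in *Ezh2* KO, 0.824 and 1.78 in *Ezh1/2* dKO, and 422 and 613 in *Ezh2* Y726D ESCs. *Ezh1* was at 227 and 377 in WT, 372 and 378 in *Ezh2* KO, 14 and 20.4 in dKO, and 24.1 and 15.7 in Y726D ESCs. The 12 pluripotency markers (*Pou5f1*, *Sox2*, *Nanog* and others) were all detected, with a summed level of 16171 to 17307 normalised counts in WT and 14957 to 15918 in dKO ESCs. In these bulk samples, fewer cells with a transcript and less of it per cell cannot be told apart.

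*Alppl2* was not detected in WT ESCs, with 0 reads in both libraries, which allows up to 4.0 and 2.89 normalised counts (the worth of 3 reads). In *Ezh2* KO ESCs it had 2 reads in each library, 2.09 and 1.94 normalised counts. In *Ezh2* Y726D ESCs it had 3 reads in each, 2.67 and 3.36 normalised counts. In *Ezh1/2* dKO ESCs it had 47 and 95 reads, 38.7 and 84.4 normalised counts. Both dKO libraries lay far above the other 6. The *Ezh2* KO and Y726D values lay below the 4.0 that 0 reads allow in WT replicate 1, so they are not separated from WT. The step from *Ezh2* KO to Y726D rests on 4 against 6 reads.

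*Vnn1* had the same order of lines. It was also at 0 reads in both WT libraries. In *Ezh2* KO ESCs it had 3 reads in each library, 3.14 and 2.90 normalised counts. In *Ezh2* Y726D ESCs it had 7 and 9 reads, 6.24 and 10.1 normalised counts. In *Ezh1/2* dKO ESCs it had 52 and 84 reads, 42.9 and 74.6 normalised counts. The *Ezh2* KO values again lay below the 4.0 normalised counts that 0 reads allow in WT replicate 1, while both Y726D values lay above it. The level of *Vnn1* in Y726D ESCs stood further above WT than that of *Alppl2*.

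**Figure D1:**
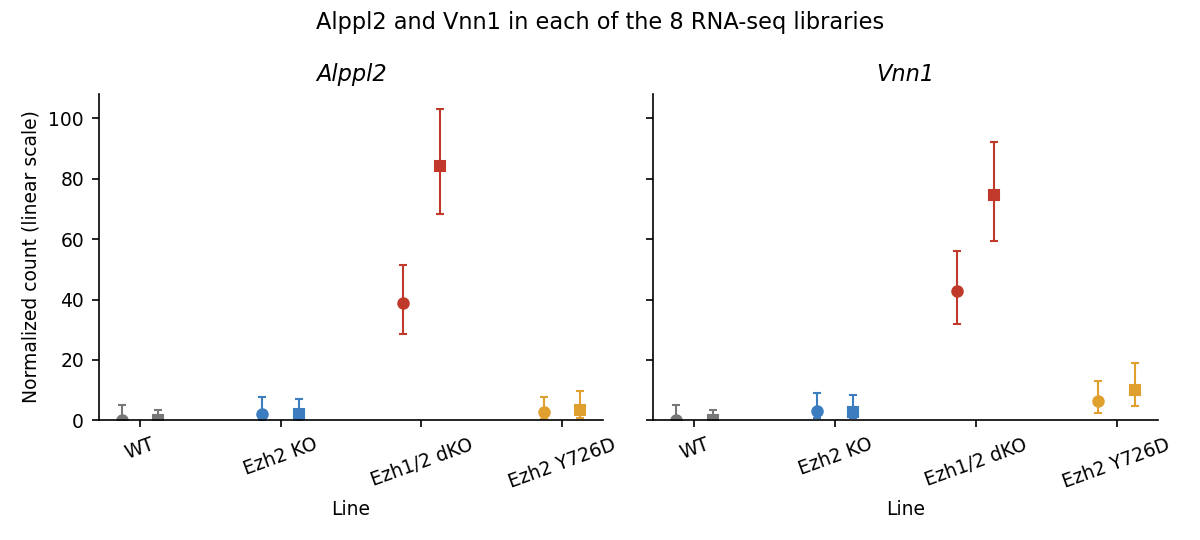
Normalised read count (linear axis) of *Alppl2* and *Vnn1* in each library of the 4 lines. Circles are replicate 1, squares are replicate 2, and bars are exact 95% Poisson intervals for counting error only. Both genes sit at 0 in WT and above 38 normalised counts only in *Ezh1/2* dKO ESCs.

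As a group mean, *Alppl2* was at 61.5 ± 32.3 normalised counts in *Ezh1/2* dKO ESCs (SD, n = 2), 3.02 ± 0.482 in Y726D and 2.01 ± 0.110 in *Ezh2* KO ESCs. *Vnn1* was at 58.7 ± 22.4 in dKO (SD, n = 2), 8.15 ± 2.71 in Y726D and 3.02 ± 0.165 in *Ezh2* KO ESCs. Against a floor of 3 reads over the WT libraries, the ratio in dKO ESCs was 36.2 for *Alppl2* and 34.7 for *Vnn1*, without an interval. Against *Ezh2* KO, the ratio of summed reads scaled by library was 30.2 for *Alppl2* (95% counting interval 11.5 to 112) and 19.3 for *Vnn1* (8.63 to 53.5). Against Y726D it was 20.4 for *Alppl2* (9.14 to 56.5) and 7.32 for *Vnn1* (4.35 to 13.2). These exact binomial intervals cover counting error only and not the spread between libraries.

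The lower part of the order is less firm than the step to dKO. Y726D over *Ezh2* KO gave a ratio of 1.48 for *Alppl2* (0.351 to 7.14) and of 2.63 for *Vnn1* (0.979 to 8.21), and both intervals include 1. Against the WT floor, the ratio in Y726D was 1.77 for *Alppl2* and 4.73 for *Vnn1*, and in *Ezh2* KO it was 1.2 and 1.8. These ratios leave out the counting error of the mutant reads, so they are not lower bounds. For *Alppl2* in both lines and *Vnn1* in *Ezh2* KO they do not separate such low levels from WT. For *Vnn1* in Y726D, 16 reads stood against 0 in WT, and both values lay above the 4.0 normalised counts that 0 reads allow in WT replicate 1. These small levels rest on 4 to 16 reads over a line.

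Between the 2 dKO libraries, both genes were higher in replicate 2, *Alppl2* by 2.18-fold and *Vnn1* by 1.74-fold. Over the 2053 tested genes with a dKO mean of 40 to 100 normalised counts, the median difference between the same libraries was 0.28 on the log2 scale, against 1.10 for *Alppl2* and 0.79 for *Vnn1*. *Alppl2* differed more than 97.0% of these genes and *Vnn1* more than 91.4%. Both libraries nonetheless lay above all others for both genes.

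For the whole table, log2(normalised count + 1) was fitted with limma over 13872 genes with a mean of at least 5 normalised counts, and a gene was called at a Benjamini-Hochberg adjusted p under 0.1 and a log2 difference of at least 1. In this fit 503 genes were called higher in dKO than in WT (3.63%), 488 higher in dKO than in *Ezh2* KO (3.52%), and 207 higher in dKO than in Y726D ESCs (1.49%). *Alppl2* and *Vnn1* passed in all 3 comparisons, which share the dKO libraries and are the ones that chose the genes, so nothing is read from it. On this scale *Alppl2* was 5.86 higher in dKO than in WT, 4.27 higher than in *Ezh2* KO and 3.86 higher than in Y726D, and *Vnn1* was 5.85, 3.84 and 2.69 higher. Compared with WT, *Vnn1* was 3.16 higher in Y726D and *Alppl2* 2.0 higher, and in *Ezh2* KO the differences were 2.01 and 1.59. No call is read from these either, since the choice of the genes used the same libraries and both genes met the filter on low values only through the dKO libraries. Over the whole table, 1.66% of genes were called higher in Y726D than in WT, and in *Ezh2* KO 0.0937% were called higher and 0.31% lower. The lower calls were 0.389% of genes in dKO and 1.06% in Y726D against WT, *Ezh1* among them in both. Leaving out dKO replicate 1 left 9 genes called between dKO and WT and leaving out replicate 2 left 3, of 557 in both directions with all libraries, and *Alppl2* and *Vnn1* passed only in the first of these. Against Y726D, *Vnn1* did not pass with any *Ezh2* KO, dKO or Y726D library left out or with the replicate number as a block. Without dKO replicate 1, *Vnn1* did not pass against *Ezh2* KO nor *Alppl2* against Y726D, and without dKO replicate 2 neither gene passed in any of the 3 comparisons.

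Both dKO libraries lay above all 6 others for 1414 genes (10.2% of those tested). By the gap between the lower dKO library and the highest of the others, *Alppl2* came first of all genes at 3.19 on the log2 scale and *Vnn1* came 11th at 1.99. The other 4 genes of the first 5 were *Prkch*, a protein kinase C isoform (2.84), the neural bHLH factor *Atoh1* (2.76), *1700018B24Rik* (2.71) and *Gm11545* (2.44). None of these 4 had 0 reads in both WT libraries. *Prkch*, *Atoh1* and *1700018B24Rik*, like the members, met the filter on low values only through the dKO libraries, so nothing is read from their place. Of the 20 tested genes without a read in WT, 3 reached a dKO mean of 40 normalised counts, a limit set after the values were seen, and they were *Alppl2*, *Vnn1* and *Fmo1*.

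Over the 8 libraries the log2 levels of *Alppl2* and *Vnn1* had a Pearson r of 0.974, a description that rests on 4 lines with shared levels. The genes most like *Alppl2* were *Spink2*, a serine protease inhibitor (r = 0.982), *Pter*, a phosphotriesterase-related gene (0.980), *9430020K01Rik* (0.980), *Pemt*, which methylates phosphatidylethanolamine (0.977), and *Gng11*, a G protein subunit (0.976). Those most like *Vnn1* were the SET domain gene *Smyd1* (0.986), *Spink2* (0.980), *Alppl2* itself, *4833403I15Rik* (0.968) and *Gng11* (0.966). *Spink2*, *Gng11* and *4833403I15Rik*, like the members, met the filter on low values only through the dKO libraries, so nothing is read from their likeness. The order of the lines was not the same in all of the genes named as most like the members. *Pter*, for example, went from 30.7 and 30.8 normalised counts in WT to 57.5 and 62.9 in *Ezh2* KO, 49.9 and 60.4 in Y726D, and 133 and 157 in dKO ESCs, so that *Ezh2* KO and Y726D overlapped.

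The only relatives tested were *Alpl* and *Btd*, and neither was called higher in dKO than in WT. Over all genes tested 3.63% were called higher, so nothing is read from so few genes. Of the 4 mouse alkaline phosphatase genes listed, 3 were in the table and 2 were tested. *Alpl*, the tissue-nonspecific phosphatase behind the alkaline phosphatase staining of ESC colonies, was at 1912 to 1970 normalised counts in WT, 1935 to 1947 in *Ezh2* KO, 1577 to 1609 in dKO and 1474 to 1532 in Y726D ESCs (dKO minus WT -0.29 ± 0.11 log2, SE, limma adjusted p = 0.198). Per kilobase of exon, *Alpl* was at 395 normalised counts in dKO ESCs, against 29.1 for *Alppl2*. *Akp3*, the intestinal phosphatase 35.1 kb from *Alppl2*, was too low to test, with 0 reads in WT, 1 and 0 in *Ezh2* KO, 0 and 4 in dKO, and 2 and 0 in Y726D ESCs. Of the 2064 stretches of 50 bases (the read length) in the *Alppl2* transcript, 1 also occurred in *Alpi*, the next phosphatase gene, and 0 in *Akp3* or *Alpl*. *Alpi* is not analysed here.

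For vanins, *Btd*, the related biotinidase that frees biotin, was at 104 and 118 normalised counts in WT and 118 and 133 in dKO ESCs (dKO minus WT 0.17 ± 0.25 log2, SE, limma adjusted p = 0.751). *Vnn3*, the other vanin, is not analysed here, and of the 2367 stretches of 50 bases in the *Vnn1* transcript 0 occurred in *Vnn3* or in any other gene.

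The pathway on which vanin 1 acts was covered by lists of coenzyme A synthesis and breakdown genes. None of the 9 coenzyme A synthesis genes tested (the pantothenate transporter *Slc5a6*, the pantothenate kinases *Pank1* to *Pank4*, *Coasy* and others) was called between dKO and WT, with a median log2 difference of -0.02 against 0.01 over all genes tested. Of the 7 tested genes of coenzyme A breakdown and cysteamine use, 1 was called higher (3.63% of all genes tested were), with a median of -0.09. It was *Fmo1*, a flavin monooxygenase that oxidises hypotaurine to taurine. *Fmo1* had 0 reads in WT and in *Ezh2* KO ESCs, 4.46 and 10.1 normalised counts in Y726D, and 9.89 and 71.0 in dKO ESCs. The lower dKO library did not exceed the higher Y726D library, so these lines overlapped. The *Fmo1* difference was 4.81 ± 0.92 (SE) for dKO minus WT and 1.85 ± 0.92 for dKO minus Y726D. *Fmo1* met the filter on low values only through the dKO libraries, with 12 and 80 reads, so nothing is read from its call. *Ado*, which turns cysteamine into hypotaurine, was at 974 and 1054 normalised counts in WT and 956 and 909 in dKO ESCs (log2 difference -0.12 ± 0.14, adjusted p = 0.692). *Cdo1* and *Csad*, which lead to hypotaurine from cysteine, had differences of 0.19 ± 0.37 and -0.09 ± 0.27 (adjusted p = 0.812 and 0.888).

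Both members are GPI-anchored, and none of the 26 tested genes that build or attach the anchor was called in dKO against WT (median log2 difference 0.15). Of 24 other GPI-anchored surface proteins tested, 5 rose and 1 fell, with a median of 0.09, where 3.63% of all genes tested were called higher and 0.389% lower. *Thy1*, a surface glycoprotein of neurons and T cells, went from 10.7 and 4.81 normalised counts in WT to 88.2 and 101 in dKO and 84.7 and 76.1 in Y726D ESCs. *Tex101*, a germ cell surface protein, went from 2.67 and 9.63 in WT to 93.1 and 68.4 in dKO, with 16.0 and 22.4 in Y726D ESCs. The others that rose were *Cd109*, a TGF-beta co-receptor (1.66 ± 0.44, adjusted p = 0.0927), the ephrin ligand *Efna5* (2.19 ± 0.50, adjusted p = 0.0564) and *Ly6a*, known as Sca-1 (1.75 ± 0.48, adjusted p = 0.0994). *Plaur*, the urokinase receptor, fell by 1.12 ± 0.28 (adjusted p = 0.0748). Over all lists, 16 genes including the members were called between dKO and WT, and without dKO replicate 1 or 2 this fell to 2 and 0.

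**Figure D2:**
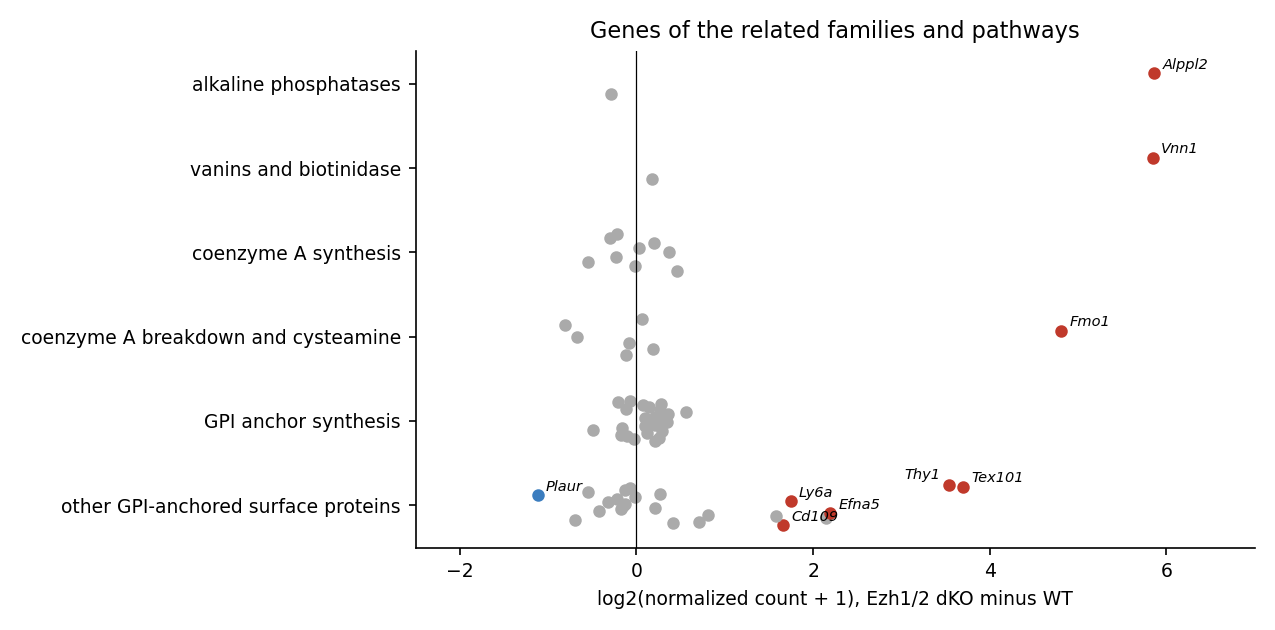
Difference in log2(normalised count + 1) between *Ezh1/2* dKO and WT ESCs for each tested gene of 6 lists. Red points are genes called higher, blue lower and grey not called, and vertical spread within a list is for legibility. *Alppl2* and *Vnn1* lie at 5.86 and 5.85 while *Alpl* and *Btd* lie at -0.29 and 0.17.

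Markers of other cell types moved between the lines as well, and their part in the rise of *Alppl2* and *Vnn1* was not tested. Against a share of 3.63% called higher over all genes tested, 3 of 5 tested primitive endoderm markers rose in dKO against WT (*Gata4*, *Dab2* and *Col4a1*), and the summed level of the 8 listed went from 117 to 167 normalised counts in WT and 91.9 to 128 in *Ezh2* KO to 831 to 1042 in dKO and 781 to 1010 in Y726D ESCs. Against the same share, 3 of 6 tested trophectoderm markers rose in dKO (*Gata3*, *Krt8* and *Krt18*), with sums of 365 to 491 in WT, 533 to 636 in *Ezh2* KO, 841 to 1044 in dKO and 719 to 1342 in Y726D. Most of the primitive endoderm sum was *Col4a1*, a collagen of basement membranes, at 660 and 896 normalised counts in dKO and 718 and 954 in Y726D, while *Gata4* was at 20.4 and 22.3 in dKO and 14.3 and 15.7 in Y726D, and the endocytic adaptor *Dab2* at 60.4 and 74.2 in dKO and 7.83 and 22.3 in Y726D. Of the other primitive endoderm markers, *Pdgfra* (1.00 ± 0.87) and *Sox7* (3.05 ± 0.94) were not called in dKO against WT, and *Gata6*, *Sox17* and *Foxa2* were too low to test. Of the other trophectoderm markers, *Eomes* (0.04 ± 0.46), *Tfap2c* (0.10 ± 0.59) and *Cdx2* (0.84 ± 1.45) were not called, and *Elf5* and *Hand1* were too low to test. *Cdx2* was at 33.0 and 440 in Y726D ESCs. The primitive endoderm and trophectoderm sums overlapped between dKO and Y726D ESCs. The 6 detected 2-cell-like markers summed to 361 and 812 in WT and 792 and 1145 in dKO, against 21.3 to 27.2 in *Ezh2* KO and 97.2 to 185 in Y726D. Of the pluripotency markers 1 of 12 rose in dKO (*Dppa3*) and 0 fell. Of 6 fibroblast genes 4 were in the table, none passed the filter, and their sum was 0 to 1.33 in WT and 15.1 to 17.3 in dKO. Of the formative or primed epiblast (5 tested), mesoderm (3) and neural (3) markers, 0 were called between dKO and WT.

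The neighbours of the 2 genes were described next, and whether a rise spread along the chromosome was not tested. Of 7 protein-coding genes that start within 200 kb of *Alppl2*, 6 were in the table and 3 were tested. *Efhd1*, a mitochondrial calcium-binding protein 174.4 kb away, was at 14.7 and 30.8 normalised counts in WT, 63.5 and 70.1 in dKO, and 95.4 and 60.4 in Y726D ESCs. It was called higher in dKO (1.6 ± 0.44, limma adjusted p = 0.0999) and in Y726D (1.78 ± 0.44, adjusted p = 0.0912) against WT. Both lie just under the limit of 0.1, and over all genes tested 3.63% were called higher in dKO and 1.66% in Y726D. *Ecel1*, an endopeptidase-like gene 66.6 kb away, was at 5.34 and 3.85 in WT, 0 in both *Ezh2* KO libraries, 13.2 and 12.4 in dKO, and 10.7 and 5.59 in Y726D. Its difference was 3.79 ± 0.63 for dKO minus *Ezh2* KO and 1.32 ± 0.63 for dKO minus WT. *Ecel1* met the filter on low values only through the dKO libraries, so no call is read for it. The translation factor gene *Eif4e2* did not pass (dKO minus WT -0.23 ± 0.12, adjusted p = 0.335).

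Of 16 protein-coding genes that start within 200 kb of *Vnn1*, most of them trace amine receptors (*Taar* genes), 4 were in the table and 2 were tested. Neither the ribosomal gene *Rps12* (dKO minus WT -0.29 ± 0.14, adjusted p = 0.303) nor the transporter gene *Slc18b1* (-0.29 ± 0.21, adjusted p = 0.493) was called, where 3.63% of all genes tested were called higher. *Taar2* had 0 to 4 reads in a library and *Taar4* 0 to 2.

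**Figure D3:**
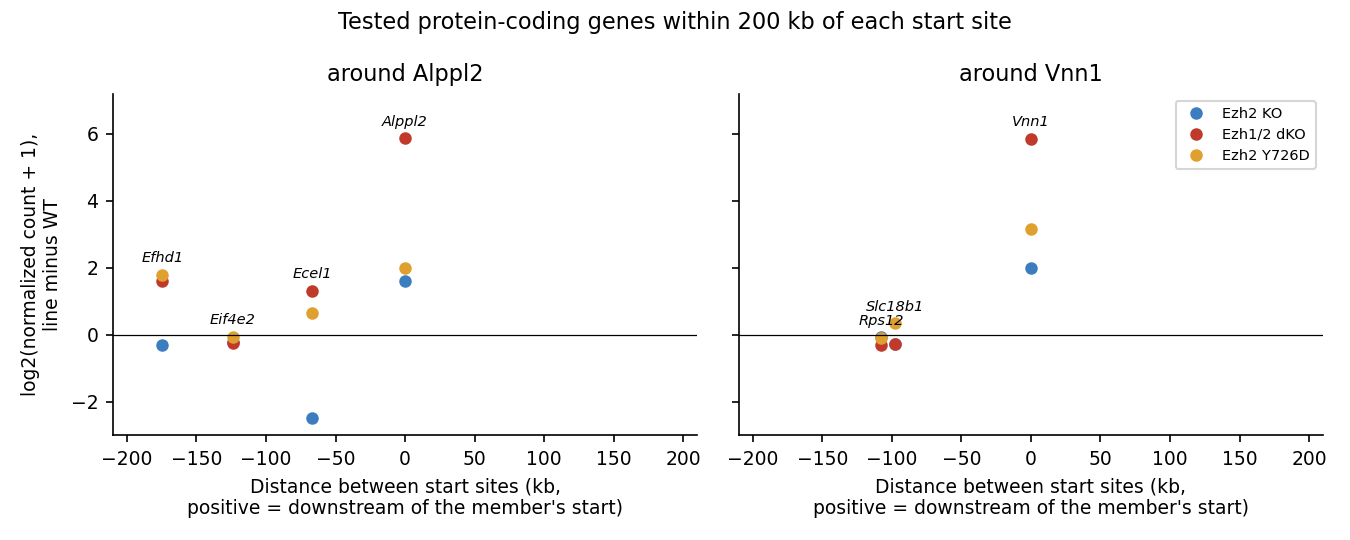
Difference in log2(normalised count + 1) from WT for tested genes around each member, by distance between start sites in kb. Colours mark *Ezh2* KO (blue), *Ezh1/2* dKO (red) and *Ezh2* Y726D (yellow) ESCs. Only *Efhd1* and *Ecel1* are above 1 in dKO besides the members, at 1.6 and 1.32.

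Peaks of each mark at the 2 loci were then read from the deposited lists, each of which rests on a single library, so no difference between lines was tested and the depth behind each list is unknown. For SUZ12, H3K27me3 and H3K27ac, peaks with a p above 1e-10 were left out. Within 5 kb of the start site, neither gene had a SUZ12 peak in any of 5 lines, an H3K27ac peak in any of 4 mutant lines, or an HA peak in dKO cells with or without HA-tagged EZH1. Neither had an H3K27me3 peak there in WT, *Ezh2* KO, *Ezh1/2* dKO or Y726D ESCs. The *Ezh2* R685C list was the exception for both, with H3K27me3 peaks 0.856 kb from the *Alppl2* start site and 2.16 kb from the *Vnn1* start site. RNA of the R685C line is not analysed here, and WT H3K27ac is not analysed here either.

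The nearest WT SUZ12 peak was 62.9 kb from *Alppl2* and 329 kb from *Vnn1*. The nearest WT H3K27me3 peaks to *Alppl2* lay 36.8 to 38.8 kb upstream, at the end of *Akp3* and just beyond it, the strongest at chr1:89023715-89025086 with a -log10 p of 16.3. An R685C SUZ12 peak also lay there (chr1:89023856-89024069, -log10 p 10.4). The same place had an *Ezh2* KO peak of 2135 bp (chr1:89023381-89025515, -log10 p 30.7) and an R685C peak of 2855 bp (chr1:89023247-89026101, -log10 p 84.6). For *Vnn1*, the nearest H3K27me3 peak was 328 kb away in WT and *Ezh2* KO. In Y726D ESCs 4 peaks of 238 to 421 bp lay 15.8 to 31.6 kb upstream, 2 of them in *Vnn3* and 2 between the genes. The Y726D list held 3862 peaks, within 50 kb of 10.7% and within 5 kb of 0.885% of all genes. The paper reports that H3K27me3 was completely lost at Polycomb sites in this line, and whether these peaks are background was not tested. The dKO list held 53 H3K27me3 peaks in all and none on chromosome 10. In dKO ESCs, where both genes were highest, the nearest H3K27ac peak was 124 kb from *Alppl2* and 81.5 kb from *Vnn1*. Distances in *Ezh2* KO, Y726D and R685C ESCs were 123, 64.7 and 123 kb for *Alppl2* and 81.1, 80.7 and 80.7 kb for *Vnn1*.

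**Figure D4:**
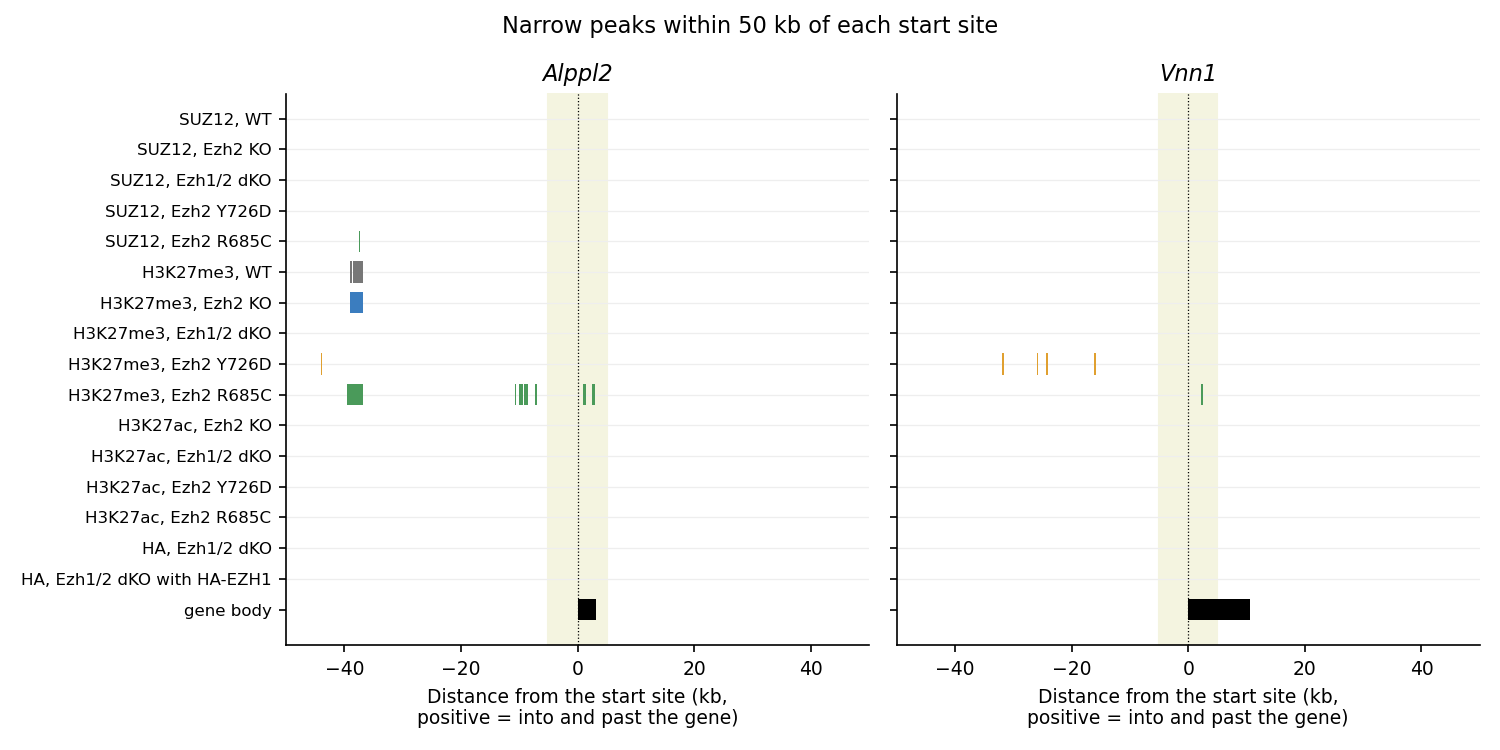
Peaks of SUZ12, H3K27me3, H3K27ac and HA within 50 kb of the start sites of *Alppl2* and *Vnn1*, drawn to scale by distance in kb, 1 row per list and 1 library per list. Colour marks the line, the shaded band is 5 kb on each side and the black bar is the gene. Only the H3K27me3 row of *Ezh2* R685C has peaks in the band.

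The absence of these peaks was set beside the shares over all annotated protein-coding genes. A WT SUZ12 peak lay within 5 kb of the start site in 13.6% of protein-coding genes, and in 47.2% of the 502 matched genes called higher in dKO than in WT, 2 of which are the members. For WT H3K27me3 the shares were 17.6% and 54.8%. *Alppl2* and *Vnn1* had neither peak in WT. They are among the 502 genes through the contrast that chose them, so nothing is read from their place there. An H3K27ac peak of dKO ESCs lay within 5 kb in 26.4% of all genes, in 23.5% of those called higher and in 27.6% of 1975 genes with a dKO mean of 40 to 100 normalised counts, the level of the members. The longer Y726D list reached 44.3%, 47.2% and 56.4%. The R685C H3K27me3 list, the only one with the members, was also the longest of its mark, with 22245 peaks, and reached 22.8% of all genes and 67.5% of those called higher.

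**Figure D5:**
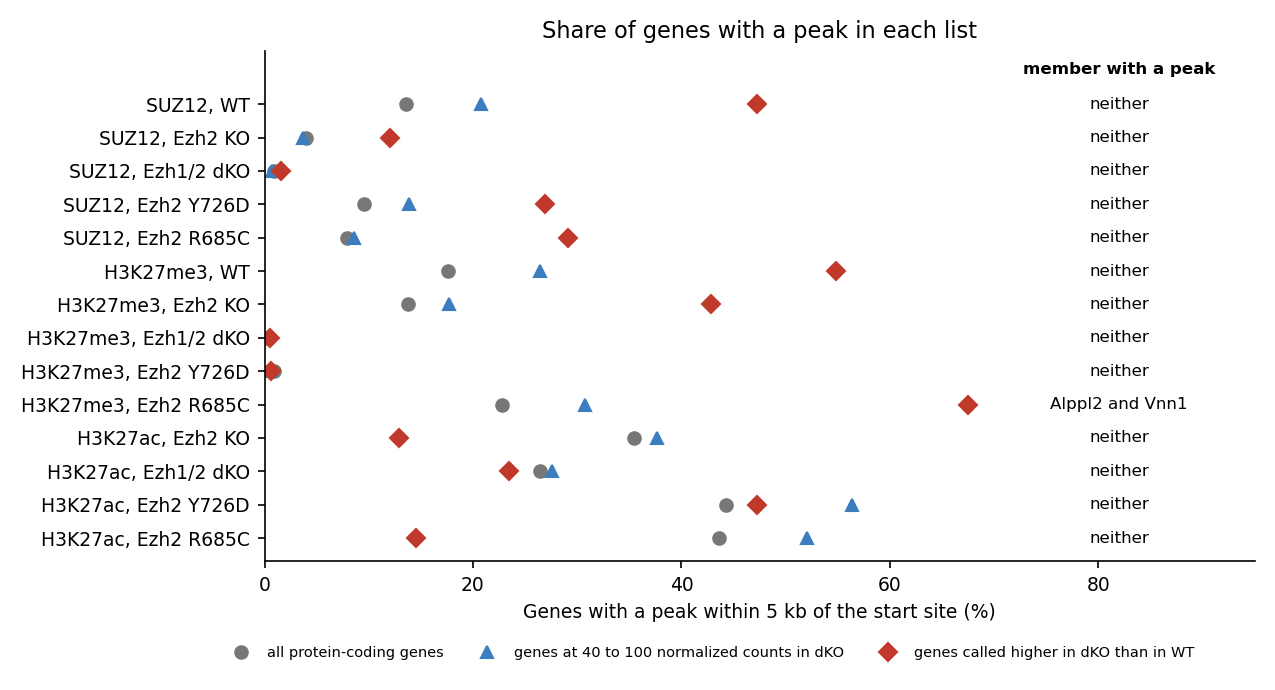
Share of genes (%) with a peak within 5 kb of the start site in each SUZ12, H3K27me3 and H3K27ac list, for all protein-coding genes (grey), genes with a dKO mean of 40 to 100 normalised counts (blue) and genes called higher in dKO than in WT (red), with the members that have a peak named at the right (the dKO H3K27me3 list holds no chromosome 10). WT SUZ12 is at 13.6% of all genes and 47.2% of those called higher, and at neither member.

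In the R685C list, *Alppl2* held 2 H3K27me3 peaks inside the gene. The stronger, chr1:88985103-88985647, had a -log10 p of 17.9 and a fold enrichment of 10.3, above 53.1% of the peaks of that list, and covered all of exon 5, part of exon 4 and the introns beside them. The weaker, chr1:88983487-88984115, had a -log10 p of 10.5 and lay on exons 10 and 11. A further 4 peaks lay 7 to 10.5 kb upstream, 3 of them in *Alpi*. The stronger peak held 21 CpGs in 545 bases. Its central 300 bases, chr1:88985226-88985525 on the strand of the gene, are shown with CpGs in capitals because they hold 12, against 3 in the 250 bases of the promoter printed above.
*Alppl2* peak: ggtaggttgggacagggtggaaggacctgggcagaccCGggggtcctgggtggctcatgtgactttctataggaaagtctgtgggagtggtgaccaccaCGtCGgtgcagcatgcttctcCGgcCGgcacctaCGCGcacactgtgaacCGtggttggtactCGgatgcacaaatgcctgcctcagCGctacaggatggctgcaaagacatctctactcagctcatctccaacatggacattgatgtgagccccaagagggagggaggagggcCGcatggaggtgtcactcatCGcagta

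The R685C peak in *Vnn1*, chr10:23616654-23617009, had a -log10 p of 21.2 and a fold enrichment of 11.7 and lay in intron 1. It held 3 CpGs in 356 bases. Regions of 4 other lists were picked for a start beside that of this peak. The 33 bp span of the 5 starts thus follows from that choice. Regions with other starts over the same place, such as a WT H3K27me1 region given below, were not included. In *Ezh1/2* dKO ESCs the regions picked were an H3K27me1 region (chr10:23616651-23617165, -log10 p 4.68) and an H3K27me2 region (chr10:23616648-23617582, -log10 p 5.20). In Y726D ESCs it was an H3K27me2 region (chr10:23616632-23617732, -log10 p 5.22) and in *Ezh2* KO an H3K27me1 region (chr10:23616665-23617934, -log10 p 1.80). Within their own lists the 3 regions of dKO and Y726D stood near the top. A higher -log10 p was found for 41 of 265774 H3K27me1 regions in dKO, 65 of 478485 H3K27me2 regions in dKO and 60 of 475687 in Y726D ESCs.

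These lists include lines without H3K27 methyltransferase activity, and the place has a repetitive sequence. A run of AAGA repeats ended at position 23616635 and a run of AACAC repeats covered positions 23616805 to 23616856. The 300 bases of chr10:23616594-23616893 are printed on the plus strand with tandem repeats of at least 24 bases in capitals.
*Vnn1* intron 1: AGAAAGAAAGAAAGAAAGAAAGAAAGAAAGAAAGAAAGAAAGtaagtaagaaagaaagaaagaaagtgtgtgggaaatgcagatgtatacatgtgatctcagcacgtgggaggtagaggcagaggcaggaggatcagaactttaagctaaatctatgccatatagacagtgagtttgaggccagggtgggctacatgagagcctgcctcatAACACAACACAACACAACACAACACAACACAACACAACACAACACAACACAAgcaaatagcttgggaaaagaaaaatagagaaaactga
ChIP-seq reads with more than 1 place in the genome were discarded by the authors, and the part of the repeats in these regions was not tested.

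Regions of H3K27me1 and H3K27me2, which are broad, and of ATAC-seq were taken without a further threshold, most of them at a -log10 p under 2. At *Alppl2*, the strongest were those of *Ezh2* KO ESCs. An H3K27me2 region of 4457 bp covered the gene and its start site (chr1:88983001-88987457, -log10 p 2.44, above 94.3% of that list), and an H3K27me1 region of 4209 bp covered most of the gene (chr1:88982095-88986303, -log10 p 2.28, above 99.2% of its list). A stronger H3K27me2 region of 7520 bp began 4.78 kb upstream, over *Alpi* (-log10 p 4.66). In WT, the nearest H3K27me2 region lay 0.507 kb upstream of the start site (-log10 p 1.31) and the nearest H3K27me1 region 16.3 kb away. In dKO ESCs an H3K27me2 region crossed the start site with a -log10 p of 1.2, below the median of 1.35 of that list, and 80.1% of all genes had such a region within 5 kb.

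At *Vnn1*, WT ESCs had an H3K27me1 region from 1.58 kb into the gene (2849 bp, -log10 p 2.44), which also covers the place described above, and H3K27me2 regions 0.912 kb inside and 0.983 kb upstream of the start site. *Ezh2* KO, dKO and Y726D ESCs each had an H3K27me2 region across the start site, with -log10 p values of 1.46, 1.32 and 1.19. Each lay below the median of its list (1.51, 1.35 and 1.36). Such a region lay within 5 kb in 49.5%, 80.1% and 81.7% of all genes, so nothing is read from these regions. The H3K27me1 list of Y726D ESCs covered 9 chromosomes without chromosome 10, so *Vnn1* was not analysed there.

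ATAC-seq regions mark open chromatin, and those of dKO ESCs were not the strongest of the 4 lines at either start site. At the *Alppl2* start site a region was listed in all 4 lines, with a -log10 p of 1.33 in WT, 1.57 in *Ezh2* KO, 1.34 in dKO and 1.92 in Y726D. At the *Vnn1* start site regions were listed in WT (-log10 p 1.33) and Y726D (1.81), while the nearest was 0.106 kb away in *Ezh2* KO (1.49) and 1.01 kb away in dKO (1.54). The median of each list was 1.35, and about 95% of all genes had a region within 5 kb in each line, from 94.8% in Y726D to 95.3% in *Ezh2* KO. With 1 library a line no difference between these values was tested.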

How the data were processed

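RNA-seq (SMART-seq, 4 lines, 2 libraries each), ChIP-seq and ATAC-seq (1 library per line and target) of mouse ESCs were used. The 2 genes and the gene lists were chosen with earlier results of these data known. Per the labels and the methods of the study, peaks were called by the authors with MACS2 on uniquely placed reads (Bowtie, mm9), after removal of duplicates (Picard). These lists, as deposited, give the -log10 p and the fold enrichment of each peak as a ratio over background, and the HA lists positions only. RNA reads were aligned with TopHat, counted on RefSeq genes without strand by HTSeq-count and normalized with DESeq2. In the deposited table each normalized count is thus a scaled signal, the reads on a gene over the size factor of its library. Of their values 100% were whole multiples of 1 read, so that reads were recovered (tolerance 0.001). The deposited comparisons with WT hold the authors' fold changes and p-values and were not used. Samples named for Y726D without *Ezh1* KO were taken as the *Ezh2* Y726D line that the study describes.

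All 8 RNA libraries were fitted together with limma 3.58.1 (R 4.3.3, eBayes with trend, log2(normalized count + 1), mean normalized count of at least 5). Calls needed a Benjamini-Hochberg adjusted p under 0.1 over 13872 genes and an absolute log2 difference of at least 1. edgeR 4.0.16 (quasi-likelihood) and DESeq2 1.42.0 on recovered reads were alternatives, next to a pseudocount of 5, TMM scaling, no filter, only the 4 libraries compared, each library left out, a replicate block, and other peak windows and thresholds. The fits were tested on simulated data. Folds against 0 reads use a floor of 3 reads over the group, and 95% intervals are exact. Start sites come from GENCODE vM1 (mm9), in which 16460 genes of the table were matched, and sequences from the mm9 genome. Exon lengths of this annotation were used for levels per kilobase, although the authors counted on RefSeq models. The genes named are the members, *Ezh1*, *Ezh2*, the listed genes, neighbours within 200 kb, the 5 genes most correlated with each member and the 5 with the largest gap between dKO and the other libraries. RING1B, H2AK119ub, WT H3K27ac, input, rescue with EZH2 and DMSO or MG132 samples were not analysed here.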

Additional observations from a re-analysis of the deposited data

How the results depend on the processing

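Both members, chosen for this direction, were higher in dKO in each alternative that refitted them. Their log2 differences from WT, *Ezh2* KO and Y726D depended on the treatment of low values, with 3.64, 3.16 and 2.96 for *Alppl2* and 3.63, 2.94 and 2.25 for *Vnn1* at a pseudocount of 5, 8.97, 4.86 and 4.32 and 8.91, 4.23 and 2.86 with edgeR, and 8.21, 4.94 and 4.36 and 8.14, 4.29 and 2.86 with DESeq2. Without 1 library they ranged from 5.31 to 6.42, 3.72 to 4.82 and 3.31 to 4.42 for *Alppl2* and from 5.45 to 6.24, 3.45 to 4.23 and 2.29 to 3.08 for *Vnn1*, with both ends set by the dKO libraries. The *Vnn1* difference between dKO and Y726D no longer passed with any *Ezh2* KO, dKO or Y726D library left out or under the replicate block. Without dKO replicate 1, 3 of the 6 member comparisons passed, and without dKO replicate 2, 0. Genes called ranged without 1 library from 3 to 733 (dKO against WT), 53 to 665 (dKO against *Ezh2* KO), 14 to 514 (dKO against Y726D), 6 to 135 (*Ezh2* KO against WT) and 156 to 546 (Y726D against WT), and called list genes from 0 to 17. A lone library was assumed to vary like the other lines. *Ezh2* KO against WT (56 genes) gave 30 with edgeR, 144 with DESeq2 and 35 without a filter. With only the 4 libraries compared in the fit, 1181 genes were called for dKO against *Ezh2* KO (496 with all 8), 150 for dKO against Y726D (233), 28 for *Ezh2* KO against WT and 32 for Y726D against WT (377). TMM scaling left each value within its limits. Replicate numbers were not taken as pairs, since deviations of same-numbered libraries correlated at -0.41 to 0.29 between lines. With the replicate block *Ezh2* KO against WT gave 34 calls and dKO against WT 514. Of 16 narrow lists, 1 had a peak within 5 kb of either start site. Within 50 kb it was 5 for *Alppl2* and 2 for *Vnn1*, within 1 kb 0 for *Vnn1*, and at a p of at most 1e-20, 0 for *Alppl2*. The causes of these changes were not tested. Depth limits the WT, *Ezh2* KO and Y726D levels, which rest on 0 to 9 reads a library.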
